A study of Mus musculus with 6 samples.

Results

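Tlr2 and 4 other genes of mouse chromosome 3, Aadac, Mme, Mnd1 and Rhbg, were followed across knockout and wild-type colonic mucosa. The 4 neighbours were chosen for a consistent change between knockout and wild type on the 4 expression arrays. Agreement in sign was not the whole criterion, as many more chromosome 3 genes had it. Tlr2 and these neighbours are 5 of 14695 named genes measured and 5 of 697 on chromosome 3. All 6 of their probes, matched through the RefSeq accession, passed the filter on dim spots. The arrays compared colonic mucosa of Tlr2 knockout mice with that of wild-type mice. Both groups were C57BL/6 and 90 postnatal days old, and no other treatment is labelled. Each array held 1 knockout and 1 wild-type sample and is named here as a pair, by the number of its knockout sample (1, 2, 4 and 5). The knockout carried Cy3 in pairs 1 and 2 and Cy5 in pairs 4 and 5. No label says that each sample is a separate animal, nor how the Tlr2 allele was made or which part of the gene it removes. Whether the Tlr2 probe lies within the deleted part is therefore not known here.

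TLR2 is a cell-surface receptor for bacterial lipoproteins. It pairs with TLR1 or TLR6 and signals through the adaptors TIRAP and MyD88 to NF-kB, and in the gut it is found on epithelial and immune cells. The products of the other 4 genes belong to different pathways. AADAC is an esterase of the endoplasmic reticulum found in liver and intestine, and MME, or neprilysin, is a zinc endopeptidase that cleaves small peptides at the cell surface. MND1 works with PSMC3IP in strand exchange during meiotic recombination, and RHBG is an ammonium transporter of epithelial cells.

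RefSeq promoter windows (build GRCm38.p6, 250 bases before to 50 after the start) were found for 4 of the 5 genes. The windows of the disrupted gene, of the neighbour with the largest difference and of the nearest neighbour are shown, so that the differing starts of these genes can be seen. Capitals mark every match on either strand to GGGCGG (the GC box) or CCAAT. Also searched were TATAAA (the TATA box) and CACGTG (an E-box), which had 0 matches in these 3 windows. The windows lie at chr3:83841559-83841858 (minus strand) for Tlr2, chr3:60031538-60031837 (plus strand) for Aadac and chr3:84155737-84156036 (minus strand) for Mnd1.
Tlr2: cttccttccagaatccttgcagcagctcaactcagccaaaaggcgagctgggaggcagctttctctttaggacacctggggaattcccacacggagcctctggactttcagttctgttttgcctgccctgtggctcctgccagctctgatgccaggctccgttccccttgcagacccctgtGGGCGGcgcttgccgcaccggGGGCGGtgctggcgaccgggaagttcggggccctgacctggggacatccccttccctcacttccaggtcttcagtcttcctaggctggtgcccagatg
Aadac: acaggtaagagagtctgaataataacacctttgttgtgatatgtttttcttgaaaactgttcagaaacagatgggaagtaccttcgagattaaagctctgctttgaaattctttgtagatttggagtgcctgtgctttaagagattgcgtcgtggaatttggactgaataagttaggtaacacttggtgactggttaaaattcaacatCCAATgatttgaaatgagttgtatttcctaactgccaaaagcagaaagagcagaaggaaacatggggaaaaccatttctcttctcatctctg
Mnd1: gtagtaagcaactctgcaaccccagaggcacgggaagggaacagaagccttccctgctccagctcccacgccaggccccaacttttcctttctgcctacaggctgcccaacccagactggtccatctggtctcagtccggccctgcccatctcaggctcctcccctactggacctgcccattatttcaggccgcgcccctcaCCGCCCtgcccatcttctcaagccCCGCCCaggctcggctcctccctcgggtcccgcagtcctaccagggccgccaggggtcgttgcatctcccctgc
The Tlr2 window held 2 GC boxes, the first of them 69 bases before the start of the gene. Of 32851 promoter windows of this length, 35.7% held a GC box. The Aadac window, with 37.3% G and C against 62% for Tlr2 and 65% for Mnd1, held 1 CCAAT, 42 bases before the start, which 37.4% of windows hold. The Mnd1 window held 2 GC boxes, the first of them 48 bases before the start. A TATAAA stands in 13.6% of windows and a CACGTG in 7.15%. These matches describe the letters only.

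Ratios are given as log2 of knockout over wild type, after background correction and loess normalisation, and levels as normalised log2 signals per channel. The submitters counted a transcript as changed when it differed over 1.6-fold (0.678 in log2) on at least 2 arrays with none contradicting. Applied to the ratios computed here, this rule called 0.762% of all genes measured higher and 0.715% lower. The authors' deposited tables, which hold the authors' own ratios, list 328 higher and 277 lower transcripts. All 5 genes passed the rule as applied here, Mme, Mnd1 and Rhbg higher and Tlr2 and Aadac lower. Their change on these arrays is what they were chosen for, so this count and the ratios and ranks given here are a description. Over all genes 7.19% were higher and 8.42% lower on 4 of 4 arrays at any size of ratio, and on chromosome 3 these shares were 9.47% and 8.03%. Tlr2, Aadac and, on the brighter of its 2 probes, Mme differed at least 1.6-fold on all 4 arrays, as did 0.0885% of all genes higher and 0.0408% lower, and 0.43% and 0.287% on chromosome 3. Nothing about the 5 genes is read from these shares. By limma with a dye term, 0% of genes passed an adjusted p of 0.05 in each direction, and 8.1% (1191 genes) had an unadjusted p under 0.05. Without the dye term limma called 3 genes (0.0204%), which were Tlr2 and Aadac, both lower, and Wdfy1 (an endosomal protein gene, on another chromosome), which was higher and is named here because of that call.

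Of 43379 spots that were not controls, 63.3% to 76.5% exceeded the background clearly for wild-type RNA and 67.7% to 71.9% for knockout RNA. All 11 markers of absorptive colonocytes that were measured, of 12 listed, were above background in all 8 channels. Pair 1 differed from the other pairs over all genes, with correlations across genes of -0.21, -0.42 and -0.10 with pairs 2, 4 and 5, against 0.42 to 0.57 among those 3. Genes are not independent replicates, so these correlations are a description. The 5 genes were chosen to have 1 direction on all 4 arrays, pair 1 included. With 4 arrays, precision is limited throughout.

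**Figure D1:**
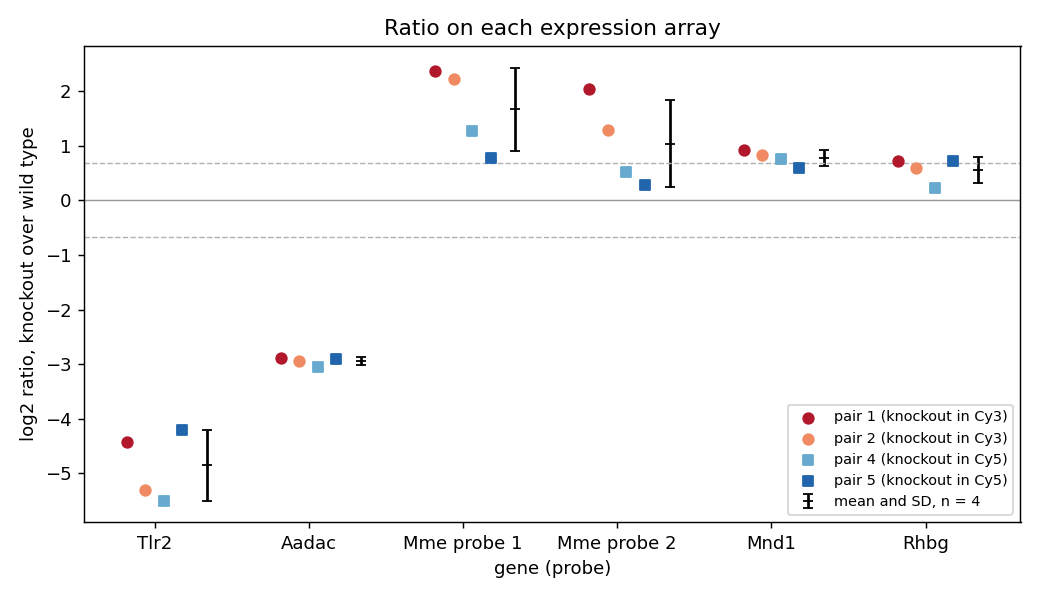
Log2 ratio of knockout over wild type (vertical axis) for each probe of the 5 genes (horizontal axis) on the 4 arrays, with circles for the knockout in Cy3 and squares for Cy5. Black marks give the mean and SD (n = 4) and dashed lines the 1.6-fold threshold. Aadac points lie together near -2.9, and both Mme probes are higher in pairs 1 and 2 than in pairs 4 and 5.

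Tlr2 RNA was measured by 1 probe printed as 10 spots on each array. The knockout levels were 7.06, 6.54, 6.87 and 7.70 for pairs 1, 2, 4 and 5, and the wild-type levels were 11.47, 11.85, 12.37 and 11.90. Every knockout sample was below every wild-type sample, with 3.77 between the nearest values. The mean log2 ratio was -4.86 ± 0.643 (SD, n = 4), the lowest of all 14695 genes. In bulk tissue, fewer cells that express a gene cannot be told apart from less RNA per cell.

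The 10 Tlr2 spots of an array measure the same labelled RNA, so their spread is technical. The SD between spots was 0.187, 0.112, 0.122 and 0.125 (log2 ratio) for pairs 1, 2, 4 and 5. The ratios of single spots ranged from -4.67 to -4.04 in pair 1 and from -5.67 to -5.34 in pair 4.

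The knockout channel kept a small Tlr2 signal. In scanner units before any correction, the median of the 10 knockout spots was 83.5 and 94.3 in pairs 1 and 2 (Cy3) and 146 and 148 in pairs 4 and 5 (Cy5). The highest of 153 negative-control spots in the same channels was 70, 73, 101 and 88, so all 10 Tlr2 spots lay above all of them on every array. The wild-type medians were 4387, 4448, 3319 and 3226. Relative to the median negative control, the knockout spots stood at 1.42, 1.57, 2.06 and 2.08 times, and the wild-type spots at 61.8, 62.6, 54.4 and 54.7 times. The knockout signal thus lay close above the range of spots that match no mouse transcript, and the excess over it was larger where the knockout carried Cy5. Dye and sample pair cannot be told apart for this difference.

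**Figure D2:**
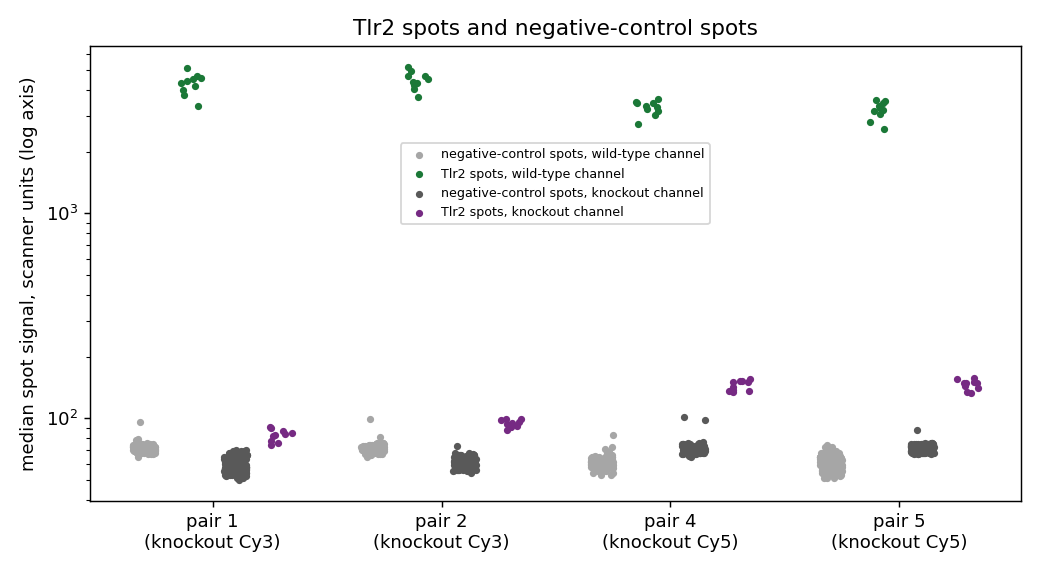
Median spot signal in scanner units (vertical log axis) of the 10 Tlr2 spots and the 153 negative-control spots in each genotype's channel, for each pair (horizontal axis). Knockout Tlr2 spots (74 to 157) lie just above the negative controls, and wild-type Tlr2 spots lie between 2592.5 and 5208.

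The size of the Tlr2 ratio differed between ways of processing the signals. Its mean was -5.05 without background correction and -5.46 with a normexp offset of 10, both within 1 SD of the main value. The scanner software's own processed signals were also loess normalised. With them the ratio was -6.51, -6.88, -6.52 and -6.09 for pairs 1, 2, 4 and 5, with a mean of -6.50 ± 0.322 (SD, n = 4). The authors' deposited table gives ratios on a linear scale of 0.0118, 0.00913, 0.0115 and 0.0139, with an average of 0.0116. The direction was the same under every alternative tried, and what sets the larger size in the processed signals was not tested.

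Aadac, the serine esterase gene, lies 23.8 Mb from Tlr2 in assembly GRCm38.p6, on the side of lower coordinates. The knockout levels were 9.28, 9.50, 9.25 and 9.85 for pairs 1, 2, 4 and 5, and the wild-type levels 12.17, 12.44, 12.30 and 12.74. The groups were separated by 2.33, far more than the range within either (0.59 for the knockout and 0.57 for the wild type). The ratios were -2.89, -2.94, -3.05 and -2.90, a mean of -2.94 ± 0.0721 (SD, n = 4) or a 7.70-fold difference, the second lowest of all genes.

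The Aadac ratio varied less between arrays than that of most genes. Only 5.3% of genes had a smaller SD, and the median SD of all genes was 0.277. Aadac was chosen for a consistent change on these same arrays, so this share is a description. The means of both dye orientations were close, at -2.92 with the knockout in Cy3 and -2.97 in Cy5. The spread depended on the normalisation, and with median centring in place of loess the SD was 0.637 and the mean -3.04. The scanner software's own log2 ratios, made without this loess step, were -3.39, -2.95, -3.14 and -3.23 for pairs 1, 2, 4 and 5. The knockout signal remained clearly measurable, at 374 to 1044.5 scanner units against at most 101 for negative controls, and 1 spot per array carries all of these values. The authors' deposited table gives Aadac ratios of 0.0954, 0.129, 0.114 and 0.107 on a linear scale. These are the scanner software's own log2 ratios in linear form, so they are not a second source.

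Mme, which encodes neprilysin, lies 20.5 Mb from Tlr2, on the same side as Aadac and 3.26 Mb from it, with 6 measured genes between them. It has 2 probes for the same transcript. On the brighter probe the knockout levels were 9.02, 8.83, 7.96 and 7.87 for pairs 1, 2, 4 and 5, and the wild-type levels 6.64, 6.59, 6.69 and 7.09. All knockout values were above all wild-type values, by 0.78 at the nearest. The wild-type signals lay near the negative controls, so the likeness of the 4 wild-type levels does not show equal amounts of RNA. The knockout samples fell into pairs 1 and 2 above pairs 4 and 5. The mean ratio was 1.67 ± 0.768 (SD, n = 4), and 92.8% of genes had a smaller SD.

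The second Mme probe had the same order of arrays. Its knockout levels were 8.04, 7.45, 6.93 and 6.80 and its wild-type levels 6.00, 6.16, 6.40 and 6.52, and the groups were only 0.28 apart at the nearest. Its mean ratio was 1.04 ± 0.798 (SD, n = 4). For wild-type RNA this probe was well above background on 2 of 4 arrays, and for knockout RNA on all 4.

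The wild-type signal of Mme was near that of the negative controls. On the brighter probe it was 138, 115, 71 and 82 scanner units for pairs 1, 2, 4 and 5, and 3 of 153 negative controls reached the value of pair 4. On the second probe, 85 and 73 of 153 negative controls were at or above the wild-type spot in pairs 4 and 5. The knockout spots of both probes lay above all negative controls on every array. Mme RNA was thus detected in each knockout sample, and in the wild-type samples it was close to the detection limit of the arrays.

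The Mme ratio was larger where the knockout carried Cy3. On the brighter probe the mean was 2.31 for pairs 1 and 2 and 1.03 for pairs 4 and 5, and on the second probe 1.67 and 0.40. With Agilent processed signals the brighter probe was at 3.44 and 2.57 and the second probe at 4.34 and 3.63, so the difference between the orientations stayed and the order of the probes turned. The authors' deposited table lists Mme at 13.2, 11.2, 4.38 and 4.24 on a linear scale. Dye and sample pair cannot be told apart for this difference. Of 11 absorptive colonocyte markers, 6 were saturated on at least 1 array, so ratios of these 6 are not measured there. The median ratio of the 5 that were never saturated was -0.55, 0.55, -0.67 and -0.14 for pairs 1, 2, 4 and 5. Over all 11, the saturated ones included, it was 0.56, 0.47, -0.62 and -0.47. Of the 11, 5 were saturated in both channels on at least 1 array, so this median is not compared with the Mme ratio. Its sign in pair 1 was opposite to that of the markers that were never saturated. The median of 10 adipocyte markers, none of them saturated, was -0.11, 0.04, 0.78 and 2.32, higher in the pairs where the Mme ratio was lower. Their summed level ran from 13.97 to 16.01 in the knockout and from 13.73 to 14.48 in the wild type, with 8 of the 10 above background in all 8 channels. No marker of either list passed the submitters' rule, and the part of colonocytes or of fat cells in the Mme ratio was not tested.

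Mnd1, the meiotic recombination gene, is the nearest of the 4, with 1 measured gene, Tmem131l, between it and Tlr2. The lower-coordinate ends of Mnd1 and Tlr2 are 0.252 Mb apart. Both genes lie on the minus strand, so these ends are not the starts shown in the promoter windows. The knockout levels were 8.73, 8.87, 8.88 and 8.90 for pairs 1, 2, 4 and 5, and the wild-type levels 7.81, 8.03, 8.13 and 8.31. The groups did not overlap, with 0.42 between the nearest values, and the knockout samples were close to each other. The ratios were 0.92, 0.84, 0.75 and 0.59, a mean of 0.78 ± 0.141 (SD, n = 4) or a 1.71-fold difference. It ranked 76th from the top among all genes and 9th on chromosome 3. In scanner units the knockout spots, 290 to 565.5, and the wild-type spots, 178.5 to 323, all lay above the negative controls.

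With Agilent processed signals Mnd1 was at 1.04 ± 0.0819 (SD, n = 4). The authors' deposited table gives 2.02, 2.20, 2.12 and 2.10. These are the scanner software's own ratios in linear form. They are close to each other, as are the processed-signal values of 1.15, 1.02, 0.96 and 1.01 (log2) for pairs 1, 2, 4 and 5.

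Rhbg, the epithelial ammonium transporter gene, lies 4.41 Mb from Tlr2 on the side of higher coordinates, beyond Mnd1. The knockout levels were 10.48, 10.35, 10.13 and 10.71 for pairs 1, 2, 4 and 5, and the wild-type levels 9.76, 9.75, 9.91 and 9.98. The groups were 0.15 apart at the nearest, less than the range of either, and the knockout sample of pair 4 was the closest to the wild type. The ratios were 0.72, 0.60, 0.22 and 0.72, a mean of 0.57 ± 0.238 (SD, n = 4) or a 1.48-fold difference. Its mean ranked 234th from the top among all genes, the smallest of the 5 in size, and the authors' deposited tables list the other 4 genes but not this one.

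Rhbg is also the gene closest to the threshold. Its second largest ratio was 0.72 against the 0.678 required, while Adar, Igsf3 and Schip1, also of 1 sign on 4 arrays, fell just short at 0.67, 0.66 and 0.65. It no longer passed the rule without pair 1 (mean 0.51) or without pair 5 (0.51), with Agilent processed signals (0.52) or with median centring (0.48), and its levels overlapped between genotypes with processed signals or without scaling between arrays. The mean was positive under each alternative tried.

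**Figure D3:**
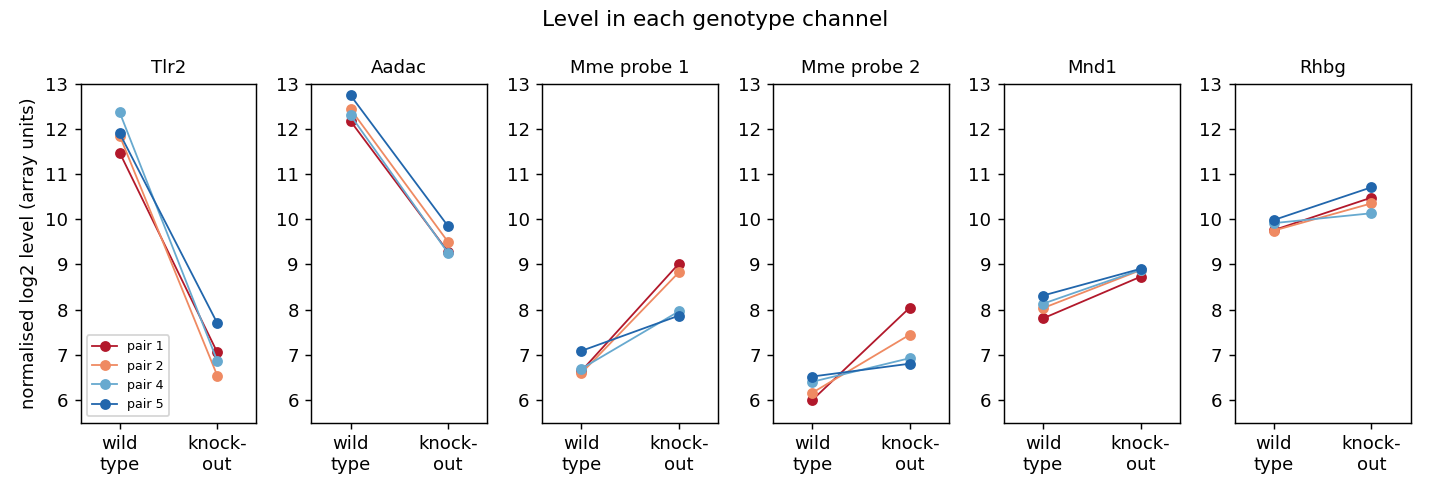
Normalised log2 level of each probe in the wild-type and knockout channel, with 1 line for each pair. The vertical axes share 1 range, but levels of different probes are not comparable. Tlr2 and Aadac lines fall in every pair, Mme, Mnd1 and Rhbg lines rise, and Mme splits in the knockout into pairs 1 and 2 above pairs 4 and 5.

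Levels of all 5 genes did not overlap between the 4 knockout and the 4 wild-type samples. Over all genes, 2.22% did not overlap with the knockout higher and 2.42% with the knockout lower, and on chromosome 3 the shares were 3.59% and 3.3%. Since the genes were chosen on this contrast, nothing is read from that count.

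For each of the 5 genes, the 3 measured genes on either side were taken. None of these passed the submitters' rule other than Tlr2 and Mnd1 for each other. Beside Tlr2, Sfrp2 (a secreted Wnt modulator gene) was at 0.01 ± 0.226, Tmem131l at 0.04 ± 0.224, Fhdc1 at 0.01 ± 0.458, Plrg1 at -0.08 ± 0.205 and Fgb (a fibrinogen chain gene) at 0.02 ± 0.151 (mean log2 ratio ± SD, n = 4). Each of these 5 was positive on some arrays and negative on others. The further neighbours of Mnd1, Arfip1 and Tigd4, were at 0.13 ± 0.549 and 0.07 ± 0.168.

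Beside Aadac, the nucleotide and metabolite receptor genes P2ry14, P2ry1 and Sucnr1 and the genes Gpr171, Siah2 and Mbnl1 had means from -0.21 to 0.46. Sucnr1, only 0.0501 Mb from Aadac, was at -0.21 ± 0.465 (SD, n = 4). Beside Mme, means ran from -0.31 for E130311K13Rik to 0.74 ± 0.887 for Rap2b, a small GTPase gene whose ratio was -0.57 in pair 1 and 0.96 to 1.30 in the others. Beside Rhbg, they ran from -0.50 for Cct3 to 0.25 for Iqgap3, with Naxe, Mef2d, Tsacc and Glmp between. Of these 18 neighbours, P2ry1 and E130311K13Rik had the same sign on 4 arrays.

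Mme was the only one to pass of 56 measured genes between Aadac and Tlr2, and Mnd1 the only one of 35 between Tlr2 and Rhbg. On the side of lower coordinates, 2 of 198 measured genes passed, Aadac and Mme. On the other side 15 of 498 passed, Mnd1, Rhbg and 13 others. Within 5 Mb of Tlr2 the rule was passed by 2 of 77 genes, which are Mnd1 and Rhbg, and by 4 of 88 between 5 and 10 Mb, 2 of 142 between 10 and 20 Mb, 4 of 170 between 20 and 40 Mb and 5 of 219 farther away. The median ratio in these 5 groups lay between -0.03 and 0.02, as for chromosome 3 (0.00) and all genes (-0.01). On chromosome 3, 1.58% of genes passed higher and 1% lower.

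The 13 other genes of chromosome 3 that passed were 8 higher and 5 lower. Among them Ciart, a clock repressor gene 12.0 Mb away, was at 1.47 ± 0.534, and Gbp3, an interferon-induced GTPase gene 58.7 Mb away, at 1.45 ± 0.40 (mean log2 ratio ± SD, n = 4). Both were at least 1.6-fold higher on all 4 arrays, as Mme was on its brighter probe, and were not among the 5 genes chosen. Among the largest mean ratios that did not pass were those of Reg4 at -1.20 ± 1.64 and Dpm3 at -1.12 ± 1.20, each with arrays of opposite sign.

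**Figure D4:**
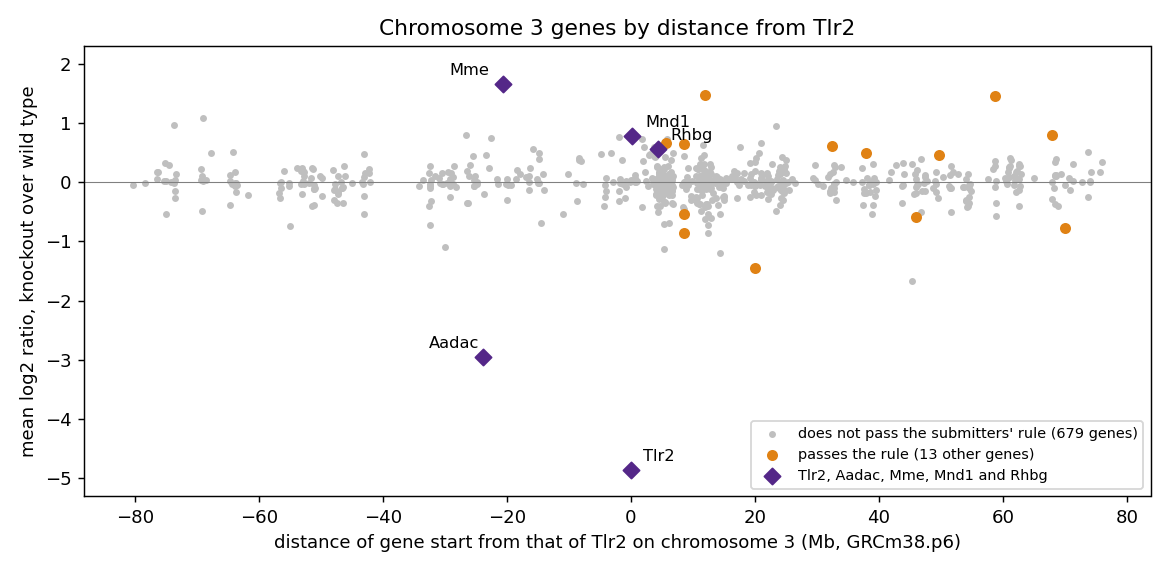
Mean log2 ratio of knockout over wild type (vertical axis) of 697 chromosome 3 genes by distance from Tlr2 in Mb (horizontal axis, GRCm38.p6). The gene start on that axis is the lower coordinate of each gene, on either strand. Grey points did not pass the submitters' rule, orange points did (13 genes), and diamonds are the 5 genes described. Aadac and Mme are the only genes past the rule at lower coordinates than Tlr2.

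Of 30 listed partners of TLR2 and genes of its signalling chain 27 were measured, and 0 passed the submitters' rule in either direction, against 0.762% higher and 0.715% lower over all genes, and 0 passed limma. Their median log2 ratio was 0.02 against -0.01 for all genes. The 4 with the smallest p were Ly96, a co-receptor of TLR4, at -0.52 ± 0.322, Tnfaip3, a brake on NF-kB, at 0.41 ± 0.391, Cd14, which hands lipopeptides to TLR2, at -0.50 ± 0.369, and Cd36, a scavenger receptor and TLR2 co-receptor, at 0.56 ± 0.682 (SD, n = 4). Named after their values were seen, the dimer partners Tlr1 and Tlr6 were at -0.12 ± 0.237 and -0.03 ± 0.198, and the adaptors Myd88 and Tirap at -0.01 ± 0.151 and 0.17 ± 0.122. Of 9 other Toll-like receptor genes 3 were measured, and Tlr4 was at -0.12 ± 0.171, Tlr3 at -0.04 ± 0.134 and Tlr9 at 0.01 ± 0.219, with 0 passing the rule or limma.

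For relatives of the other 4 genes, the counts are to be read against the same shares of all genes, 0.762% and 0.715%, which leave few calls to be had in lists of this size. Of 17 AADAC relatives, carboxylesterases and lipid-handling genes measured of 20 listed, 0 passed the rule (median -0.11). The lipid genes and esterases with the smallest p were Cyp2e1 at 0.53 ± 0.913, Ces2a at -0.57 ± 0.548, Ces2e at -0.23 ± 0.604 and the fatty acid binder Fabp1 at -0.78 ± 1.04 (SD, n = 4), and none of them had 1 sign on all arrays. Of 14 surface peptidase genes measured of 16, 0 were higher by the rule and 1 lower (median 0.04). That gene was Anpep, a brush border aminopeptidase, with ratios of -0.89, -0.29, -1.52 and -3.23 for pairs 1, 2, 4 and 5. Ggt1 was at -0.48 ± 0.743, Ece1 at 0.31 ± 0.656 and Dpp4 at 0.20 ± 0.191.

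Of 11 meiotic recombination genes measured of 18, 0 passed the rule (median -0.07), and means ran from -0.25 for Swi5 to 0.16 for Msh5. Mlh3 was at -0.16 ± 0.176 and Brca2 at -0.14 ± 0.199 (SD, n = 4), and the partner of MND1, Psmc3ip, named after its value was seen, was at -0.01 ± 0.135. Crypt proliferation genes were below 0 at the median (-0.16), with 2 of 12 positive and 4 negative on all arrays, against 7.19% and 8.42% of all genes, and 0 past the rule. The 4 with the smallest p were negative, and Mcm2 was at -0.37 ± 0.177, Pcna at -0.42 ± 0.236, Mcm5 at -0.25 ± 0.093 and Tyms at -0.25 ± 0.11. Named after their values were seen, Top2a, Mki67 and Aurkb were positive at 0.35 ± 0.256, 0.25 ± 0.265 and 0.18 ± 0.166 (SD, n = 4), so proliferation genes lay on both sides of 0. Of 17 genes of ammonium and acid handling measured of 20, 0 passed the rule (median 0.08). Slc9a3, a proton exchanger gene, was at 0.93 ± 1.03, Ass1 at -0.28 ± 0.544 and the water channel gene Aqp8, saturated on at least 1 array, at 0.14 ± 0.643. No gene of these lists passed limma.

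Markers of other cell types did not pass the rule. The median ratio was -0.21 over 13 fibroblast and smooth muscle markers, of which 6 had a positive and 7 a negative mean. It was -0.08 over 13 leukocyte markers measured of 16, of which 3 had a positive and 10 a negative mean. Among those with the smallest p, the muscle genes Tagln, Des and Myh11 were at -0.62 ± 0.846, -0.29 ± 0.449 and -0.35 ± 0.627, and Dcn, a matrix gene of fibroblasts, at -0.87 ± 1.30 (SD, n = 4). The lymphocyte genes Cd3g, Cd8a and Cd79a were at -0.23 ± 0.33, -0.34 ± 0.694 and -0.15 ± 0.179. Absorptive colonocyte genes with the smallest p, besides Aqp8, were Slc51a at -0.76 ± 1.31, Guca2b at -0.65 ± 1.45 and Slc26a3 at 0.38 ± 0.851, and adipocyte genes were Cfd at 0.74 ± 1.72, Car3 at 1.09 ± 1.38, Adipoq at 0.93 ± 1.49 and Plin4 at 0.93 ± 1.36. The SD of each of these adipocyte genes exceeded its mean, and all 10 adipocyte markers had a positive mean.

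Genes with the most similar ratios over the 4 arrays were found for each of the 5 by the root mean square difference in log2. No gene came close to Tlr2, whose nearest was Aadac at a difference of 1.98, followed by Reg3g (3.09) and Pdk4 (3.10). The measure compares sizes, and Tlr2 and Aadac had the lowest and second lowest mean of all genes, so this match shows no shared pattern. Aadac likewise had no close match, with Pdk4, a kinase gene of fuel choice, at 1.35, Lgals2 at 1.56 and Gzma at 1.61. Mme was nearest to Ciart (0.46), Ddx60 (0.469) and Per1 (0.713). Mnd1 was nearest to Nr1d2, a clock repressor gene, at 0.113, Igtp (0.149) and Gprin3 (0.169). Rhbg was nearest to Trafd1 (0.116), Irf9 (0.129) and Rabep1 (0.152). Beyond the match of Aadac to Tlr2 and of Ciart to Mme, these genes lie on other chromosomes, and with 4 arrays the likeness is a description.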

How the data were processed

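Colonic mucosa RNA of 4 knockout and 4 wild-type samples was compared on 4 two-colour arrays. Scanner files hold spot intensity and local background, and the authors deposited them from Agilent Feature Extraction (10.5.1.1 per the file headers, 8.5.1.1 per the submitters' processing notes, a difference not resolved here). They also hold the log10 ratio of Cy5 over Cy3, per the file headers, which was only read for the members. The authors deposited hit tables that hold, for each array, the knockout to wild-type ratio on a linear scale. The labels do not state the normalisation, but for Aadac and Mnd1 these ratios are the scanner software's own in linear form.

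Median signals were background corrected (normexp, offset 50) and loess normalised in R 4.3.3 with limma 3.58.1. Controls took no part in the loess fit, outlier spots were left out, and no spot of the 5 genes was saturated. Genes with a saturated spot were counted in each list after the data had been seen. A probe was kept when 1 genotype's channel was well above background on 2 or more arrays, and the brightest probe stood for a gene. Levels were scaled between arrays by Aquantile. Symbols came from accessions through a RefSeq table of GRCm38.p6, or for 17 probes from the authors' deposited tables. That table also gave distances, taken between the lower coordinates of genes on either strand. Distances may differ in the mm9 build named by the array headers. Limma used a sign per array and a dye intercept, with Benjamini-Hochberg adjustment over 14695 genes. The code was tried on simulated data with the same noise for every gene and no differing array. That run does not show how many changes limma would find on these arrays. The p-values of limma measure the spread between these samples only.

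The members, gene lists and alternatives were chosen with earlier results of these data known, and the promoter motifs were chosen after the windows had been read. Genes were named by a rule: the 5 genes and their probes, 3 measured neighbours on each side, up to 4 genes of each list by smallest limma p, the 3 most similar genes, chromosome 3 genes past 1.6-fold in 1 direction on 4 arrays, and the 3 largest that did not pass. A few genes that this rule names are not reported here. The methylation arrays were not analysed here, because no mm9 annotation was used to place the genes.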

Additional observations from a re-analysis of the deposited data

Results flagged for a closer look

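The knockout level of Mnd1 in pair 1, 8.73, stood apart from the other 3 knockout samples, which lay between 8.87 and 8.90. The gap was 0.830 of the range of the 4 values, just above Dixon's critical value for 4 values. It was the only 1 of 18 sets of 4 values past that limit, and chance alone marks about 1 in 20. The wild-type level of Mnd1 was also lowest in pair 1, at 7.81.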

How the results depend on the processing

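The mean ratios of all 5 genes kept their sign under every alternative tried. With Agilent processed signals, also loess normalised, Tlr2 was at -6.50, Aadac at -3.21, Mme at 3.01 and Mnd1 at 1.04. Aadac was at -3.03 with an offset of 10 and at -3.04 with median centring. Leaving out each array gave -5.08 to -4.64 for Tlr2, -2.96 to -2.91 for Aadac, 1.43 to 1.96 for Mme, 0.73 to 0.84 for Mnd1 and 0.51 to 0.68 for Rhbg. The count of genes past the submitters' rule, 112 higher and 105 lower, was 304 and 252 with processed signals, 45 and 294 with median centring and 40 and 38 at 2-fold, where 3 of the 5 genes passed. Leaving out each array gave 93 to 388 higher and 84 to 496 lower, and the highest counts, 388 and 496, were those without pair 1. Limma with a dye term called 0 genes. It called 2 lower with processed signals (Tlr2 and Aadac), 1 lower without background correction, with an offset of 10 or with the stricter filter (Aadac) and 1 lower with median centring (Tlr2). Without the dye term 1 gene was higher and 2 lower. Within 10 Mb of Tlr2, 6 genes passed the rule, and 2 within 5 Mb. Other coverage and probe choices for methylation were not run, as methylation was not analysed here. No paired analysis was possible beyond the pairing within each array, which every ratio here already uses, because the labels give no other pairing for the expression arrays. Knockout Tlr2 and wild-type Mme signals lay close to the negative controls, which limits how well these ratios are measured.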
